A study of Mus musculus with 7 samples.

Results

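The genes described here are the transcription factors known as the heptad of blood stem cells, namely Gata2, Tal1, Lyl1, Lmo2, Runx1, Erg and Fli1, together with their adaptor Ldb1 and the repressor Gfi1b. They were taken as all probe sets whose only gene symbol in the platform annotation is one of these 9 names, which gave 15 of the 22690 probe sets on the array, and all 9 genes were represented. RNA was measured in LSK cells, the lineage-negative, Sca-1+ and c-Kit+ fraction in which blood stem cells are enriched, sorted from bone marrow of the femur and tibia of adult C57BL/Ka-CD45.2:Thy-1.1 mice. The 4 Lkb1 KO samples (numbers 4 to 7) came from Lkb1 L/L mice carrying rosa26CreERT2, a tamoxifen-activated Cre recombinase that is expressed from the ubiquitous Rosa26 locus and so acts in all tissues. The 3 Lkb1 WT samples (numbers 5 to 7) came from Lkb1 L/L mice without Cre. Both genotypes received tamoxifen for 5 days and were sampled 1 day after it ended, so that Cre was present in the KO mice alone and both carried the floxed alleles. Each sample held 15000 to 20000 cells, whose RNA was amplified, and no label gives the age in weeks or the sex of the mice, beyond that they were adult. Nothing in the labels says that the samples of a genotype are separate animals, and p-values here reflect sample-to-sample spread, part of which may be technical.

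In mouse blood progenitors, GATA2, TAL1, LYL1, LMO2, RUNX1, ERG and FLI1 bind together at many enhancers, including those of their own genes. TAL1 and LYL1 pair with E proteins at E-box sites, LMO2 and LDB1 hold these pairs to GATA factors at GATA sites, and RUNX1, ERG and FLI1 bind RUNX and ETS sites beside them. GFI1B is a zinc finger repressor that recruits the demethylase LSD1 with CoREST, restrains stem cell expansion and is required for red cells and platelets.

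The arrays were uneven before normalization. The trimmed mean of the deposited signals averaged 386 ± 30.6 over the 4 KO arrays and 296 ± 59.1 over the 3 WT arrays (SD; two-sided exact permutation p = 0.0286, the smallest that 35 splits allow), and the 3' to 5' ratio of the Actb controls was 11.8 ± 0.419 on KO arrays and 12.9 ± 0.258 on WT arrays, again as SD (exact permutation p = 0.0571). Signals were therefore quantile normalized, and values below are normalized signals unless called deposited. The deposited signals of the tested genes had a median KO minus WT difference of 0.342 on the log2 scale, so every direction below is relative to the bulk of the genes on the array. Stk11, the gene of the kinase LKB1, had signals of 130.5, 112, 87.5 and 71.6 in KO and 185.1, 128.5 and 149.5 in WT, which overlap (log2 difference -0.56, adjusted p = 0.117). The files do not tell if this probe set reads exons removed by Cre, so it is no check of the genotypes. Kit, of the sorting gate, was above background on all 7 arrays, as were Ptprc, Cd34 and Flt3, which do not define the gate. The summed signals of these 4 genes, with Ptprc as the largest term, were 12870 to 13560 in KO and 14850 to 15720 in WT. Ly6a, the Sca-1 gene, has no probe set with a single symbol here.

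Of the 9 genes, Gfi1b fell in KO and the other 8 did not pass the test. All 9 were measured above the filter on dim signals. On the log2 scale 8 of the 9 differences were below 0 and that of Erg was above it, with a median of -0.27 against -0.02 over the 8077 genes tested. The share of all tested genes past an adjusted p of 0.05 was 5.41% (limma, Benjamini-Hochberg), made up of 2.95% lower and 2.46% higher in KO, and the members' share of 1 in 9 rests on a single gene. Over all tested genes 52.4% of the differences were below 0 and 47.6% above it. For 5 of the 9 genes all KO samples lay below all WT samples (Gata2, Tal1, Lyl1, Fli1 and Gfi1b), where 24.1% of all tested genes had groups that did not overlap, 12.7% with KO lower and 11.4% with KO higher. With the scaling as deposited, the 5 overlapped, and Gata2, Tal1, Lyl1, Lmo2, Runx1 and Fli1 had differences above 0.

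**Figure D1:**
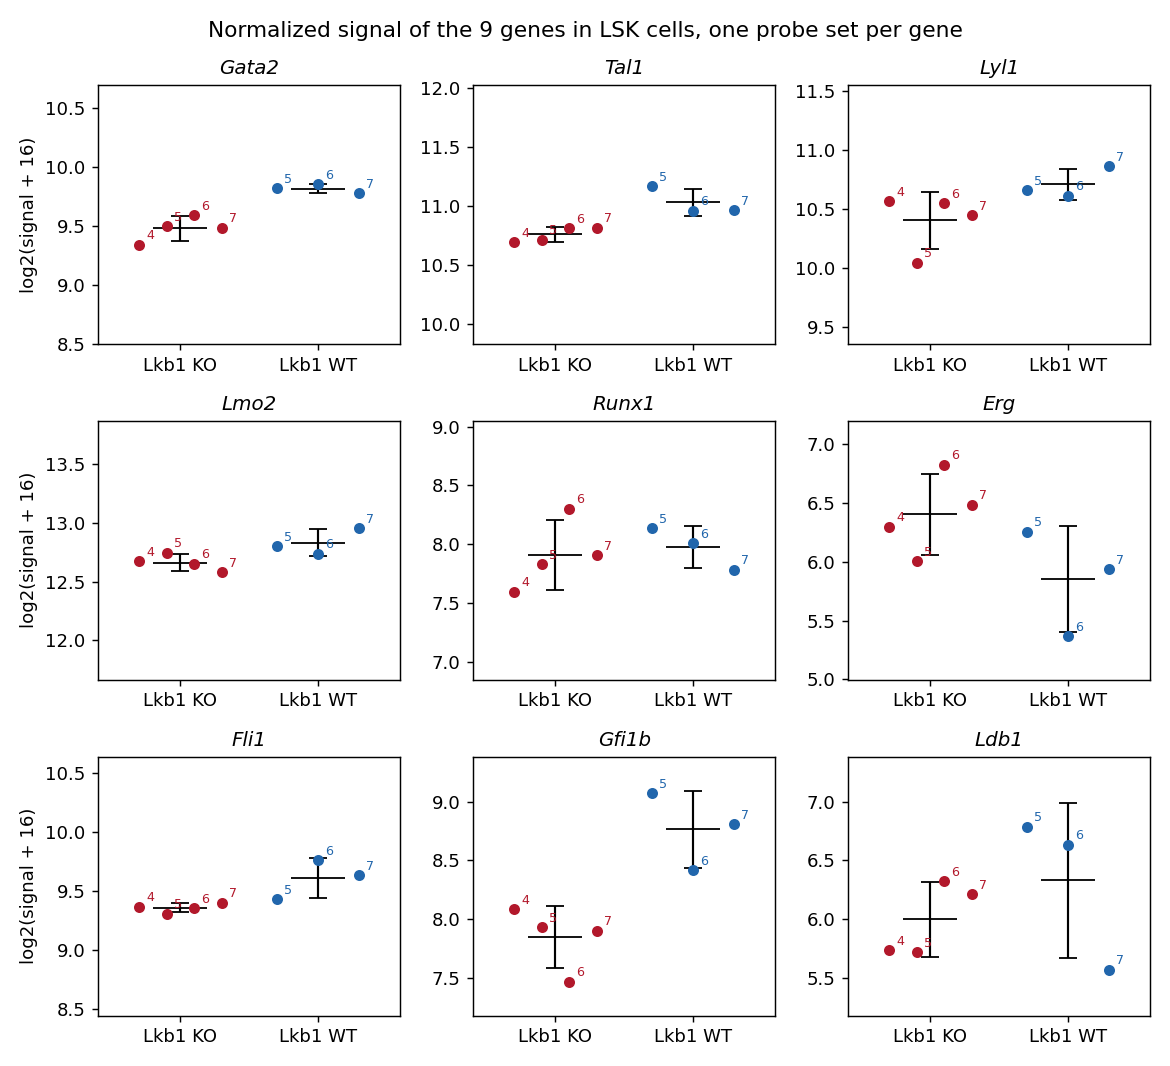
Normalized log2(signal + 16) of the brightest probe set of each of the 9 genes in 4 Lkb1 KO samples (red, left) and 3 Lkb1 WT samples (blue, right), with the sample number beside each point and bars for the mean ± SD. Every panel spans at least 2.2 log2 units. The Gfi1b panel shows the widest gap between the groups, with means of 7.85 in KO and 8.76 in WT.

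Gfi1b, the repressor (gene on chromosome 2), was the member with the lowest p. In the order of the sample numbers the 4 KO signals were 256.0, 228.7, 161.3 and 223.2, against 521.8, 325.8 and 431.6 for the 3 WT samples. Each KO sample lay below each WT sample, with KO 6 the lowest and WT 5 the highest of the 7. On the log2(signal + 16) scale Gfi1b averaged 7.85 ± 0.26 over 4 KO samples and 8.76 ± 0.33 over 3 WT samples (SD), a difference of -0.92 ± 0.19 (SE from limma, adjusted p = 0.0344), with a 95% interval from -1.35 to -0.48. This is 53.0% of the WT level on that scale, with an interval of 0.392 to 0.716 for the ratio. By p, Gfi1b ranked 274 among 8077 genes. Tested among all 13575 probe sets above the filter, of which 4.03% passed (1.94% lower, 2.08% higher), its adjusted p was 0.0429, and none of the other 12 member probe sets passed. Among the 13 member probe sets 10 differences were below 0 and 3 above it, and groups did not overlap for 5, all with KO lower. Over all tested probe sets 49.2% were below 0 and 50.8% above it, and 22.5% had groups that did not overlap, 10.9% with KO lower and 11.6% with KO higher.

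Gfi1b passed in 1 of the 7 fits without 1 sample, while its direction did not turn. Adjusted p was 0.0545 without KO 4, 0.0662 without KO 5, 0.0620 without KO 6, 0.0818 without KO 7, 0.0865 without WT 5 and 0.0889 without WT 7, and it passed without WT 6 at 0.0498. In these 7 fits 43 to 193 of all tested genes passed, in place of 437, so the loss of calls was not particular to Gfi1b. The Gfi1b difference ran from -1.09 to -0.76 in them. With the scaling as deposited it was -0.51 (adjusted p = 0.114) and the groups overlapped, since the deposited signals were 322.8, 256.5, 167.6 and 232.4 in KO and 514, 287.7 and 281.5 in WT.

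The promoter of Gfi1b is shown because Gfi1b was the member that passed. The sequence is from RefSeq, build GRCm38.p6, and is the 250 bases before the start site on the minus strand, chr2:28621983-28622232, printed 5′ to 3′ in the direction of transcription. The capitals mark a match to a GATA motif.
Gfi1b: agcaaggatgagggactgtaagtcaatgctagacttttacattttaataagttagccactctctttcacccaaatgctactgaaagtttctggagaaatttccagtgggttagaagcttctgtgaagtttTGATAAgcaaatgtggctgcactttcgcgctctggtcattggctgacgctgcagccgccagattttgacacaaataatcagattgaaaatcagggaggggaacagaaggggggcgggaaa
The search covered 7 motifs on both strands. Those for GATA factors were AGATAA as well as TGATAA, and those for E-boxes were CAGATG as well as CAGCTG. The ETS motif was GGAAGT, that for RUNX factors was TGTGGT, and that for the GFI1 family was AATCAC. In this window TGATAA occurred once, ending 115 bases before the start site, and none of the other motifs was found. TGATAA or its reverse complement occurred in 7.94% of 32851 such windows of mouse genes, so a match of this kind is common, and it is a match of letters and not a measured binding site.

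Gfi1, the close relative of Gfi1b that favours granulocyte fate and is known to be repressed by GFI1B, did not pass the test. Its signals were 316.1, 306.6, 324.6 and 372.2 in KO and 261.4, 311.4 and 268.5 in WT, which overlap (0.22 ± 0.11, adjusted p = 0.235). With the scaling as deposited Gfi1 passed as higher in KO (0.61, adjusted p = 0.0458). Taken within each array, where the scaling has little effect, the deposited Gfi1b signal divided by the deposited Gfi1 signal was 0.824, 0.736, 0.499 and 0.607 in KO and 1.98, 1.04 and 1.59 in WT. Probe sets can differ in sensitivity, so only the difference between arrays can be read from this ratio, and each KO array was below each WT array. On the log2 scale the mean of Gfi1b minus Gfi1 was -0.58 in KO and 0.56 in WT after normalization, and -0.58 in KO and 0.54 in WT in the deposited signals. This ratio was described after its values were seen and was not tested.

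Gata2, the zinc finger factor of stem cells, early progenitors and mast cells, was measured by 2 probe sets. The brighter (gene on chromosome 6) gave 632.8, 708.2, 755.9 and 701.8 in KO and 890.2, 909.4 and 862.1 in WT. All KO samples lay below all WT samples and the WT samples were close together, yet the difference did not pass the test (-0.34 ± 0.09, adjusted p = 0.0680, 95% interval -0.55 to -0.13). The dimmer gave 406.0, 389.4, 410.3 and 452.1 in KO and 511.8, 359.6 and 543.5 in WT, which overlap through the low WT 6 (-0.16 ± 0.15, adjusted p = 0.553). Gata2 passed as lower under 3 of 21 alternatives, with adjusted p of 0.0483 with a pseudocount of 64, 0.0379 with the 60th percentile filter and 0.0422 with a variance prior that follows the signal, and with the scaling as deposited its difference was 0.10. It passed in none of the 7 fits without 1 sample (adjusted p 0.0895 to 0.151), nor with median centring (-0.17, adjusted p = 0.341) or the mean of its probe sets (-0.25, adjusted p = 0.175).

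Tal1 (chromosome 4) encodes the basic helix-loop-helix factor that sets blood fate in the embryo and drives red cell and platelet genes later. Its signals were 1637, 1661, 1783 and 1785 in KO and 2280, 1974 and 1982 in WT. The groups did not overlap, and the gap between the highest KO and the lowest WT sample was smaller than the range of the WT samples. The difference was -0.27 ± 0.09 (adjusted p = 0.122, interval -0.49 to -0.06). Lyl1, its closest relative (chromosome 8), had 1502, 1042, 1484 and 1384 in KO and 1603, 1553 and 1848 in WT. These also did not overlap, with KO 5 well below the other 6 samples and KO 4 just under WT 6 (-0.31 ± 0.14, adjusted p = 0.228), and without KO 5 the difference was -0.19. The log2 signal of Tal1 minus that of Lyl1 averaged 0.35 ± 0.23 over KO samples and 0.32 ± 0.20 over WT samples (SD), which differ by less than the spread.

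The windows before the start sites of Tal1 and Runx1 that held a motif are shown to set beside that of Gfi1b, from RefSeq GRCm38.p6 with motif matches in capitals. That of Tal1 is the more upstream of its 2 windows, chr4:115056176-115056425 on the plus strand, with TTATCT, the reverse complement of AGATAA. Those of Runx1 are chr16:92826075-92826324, at the distal start site, and chr16:92697330-92697579, at the proximal one, both on the minus strand and each with GTGATT, the reverse complement of AATCAC.
Tal1: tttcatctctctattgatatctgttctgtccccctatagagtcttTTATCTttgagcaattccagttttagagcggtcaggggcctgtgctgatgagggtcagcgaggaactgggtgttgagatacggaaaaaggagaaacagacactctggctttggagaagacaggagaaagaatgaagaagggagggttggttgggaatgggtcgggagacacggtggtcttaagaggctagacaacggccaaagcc
Runx1 distal: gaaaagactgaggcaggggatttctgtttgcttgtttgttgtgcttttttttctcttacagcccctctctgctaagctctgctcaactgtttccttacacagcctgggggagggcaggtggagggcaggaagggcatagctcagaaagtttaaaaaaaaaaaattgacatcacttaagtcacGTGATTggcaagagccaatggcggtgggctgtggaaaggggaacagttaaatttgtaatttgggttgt
Runx1 proximal: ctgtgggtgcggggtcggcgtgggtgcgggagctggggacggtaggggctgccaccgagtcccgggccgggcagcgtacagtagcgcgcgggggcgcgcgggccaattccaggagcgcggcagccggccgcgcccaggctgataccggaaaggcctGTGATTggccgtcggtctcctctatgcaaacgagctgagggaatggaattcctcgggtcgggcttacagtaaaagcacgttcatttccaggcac
Of all such windows 9.99% held AGATAA and 9.14% held AATCAC, on either strand. RefSeq windows were matched for 7 of the 9 genes, 14 windows in all, and 6 of the 14 (42.9%) held at least 1 of the 7 motifs, as did 60.3% of all windows. The others with a match were 1 of the 3 Erg windows and 1 of the 3 Ldb1 windows, each with AGATAA, once for Erg and at 2 places for Ldb1. No motif was found in the windows of Gata2 and Lyl1, and no window was available for Lmo2 and Fli1. E-box, ETS and RUNX letters were in none of the 14, while of all windows 14.4% held CAGATG, 13.0% the E-box CAGCTG, 19.7% the ETS motif and 14.0% the RUNX motif.

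Neither adaptor passed the test. Lmo2 (chromosome 2) encodes a LIM-only protein that binds no DNA and links TAL1 to GATA factors. Its signals were 6516, 6850, 6416 and 6096 in KO and 7126, 6804 and 7920 in WT. KO 5 lay above WT 6, so the groups overlapped by 1 pair of samples (-0.17 ± 0.09, adjusted p = 0.302, interval -0.38 to 0.05), and the difference was -0.10 without WT 7. Ldb1 (chromosome 19), whose protein dimerizes and loops enhancers to promoters, gave dim signals of 37.4, 36.7, 64.1 and 58.3 in KO and 94.4, 83.3 and 31.6 in WT. WT 7 was the lowest of the 7 samples and WT 5 the highest, and the interval of the difference was wide (-0.33 ± 0.30, adjusted p = 0.523, -1.01 to 0.35). It ran from -0.72 without WT 7 to -0.10 without WT 5.

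Runx1, which pairs with CBF beta and is needed for stem cells to emerge in the embryo, is on chromosome 16 and had 5 probe sets, of which 3 were above the filter. The brightest gave 177.4, 211.6, 299.7 and 224.3 in KO and 265.7, 241.4 and 204.2 in WT. The KO values spanned a wider range, which contained all WT values (-0.07 ± 0.17, adjusted p = 0.842, interval -0.46 to 0.32). The second gave 45.0 to 88.6 in KO and 37.0 to 77.3 in WT (0.18 ± 0.23, adjusted p = 0.675), and the third 29.3 to 88.6 in KO and 64.4 to 130.2 in WT (-0.44 ± 0.31, adjusted p = 0.428). The 3 differences had both signs and overlapping groups, and none passed the test. The other 2 probe sets lay near the background of 13.64 deposited signal units and were not in the fits. One exceeded it on no KO array and on 1 WT array (exact permutation p = 0.0571 for the log2 values), and the other on 2 of 4 KO arrays and 2 of 3 WT arrays (exact permutation p = 0.8).

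The ETS factors of the heptad, both needed for stem cell maintenance and platelet formation, did not pass the test. After quantile normalization their brightest probe sets gave differences of opposite sign, while with the scaling as deposited both were above 0. Erg, measured by a single dim probe set (gene on chromosome 16), had 62.7, 48.3, 97.4 and 73.6 in KO and 60.3, 25.3 and 45.1 in WT. The 2 lowest samples were both WT and the 3 highest were all KO, and WT 5 lay above KO 5 (0.55 ± 0.24, adjusted p = 0.201, interval -0.01 to 1.11), and the difference was 0.31 without WT 6. With the scaling as deposited Erg passed as higher (0.78, adjusted p = 0.0229), and its groups overlapped there as well. Fli1 had signals of 643.4, 616.0, 638.1 and 658.3 in KO and 672.8, 852.1 and 776.9 in WT in its brighter probe set (gene on chromosome 9). The KO samples were tightly grouped below all WT samples, with WT 5 close above them (-0.25 ± 0.10, adjusted p = 0.168).

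The second Fli1 probe set had a difference of the other sign. Its signals were 84.4, 95.4, 157.5 and 118.1 in KO and 100.8, 88.6 and 36.1 in WT, which overlap (0.56 ± 0.30, adjusted p = 0.301). In the deposited signals it was the sole member probe set whose groups did not overlap, with 103.7, 104.4, 163.2 and 123.1 in KO and 102.7, 79.8 and 25.9 in WT, where KO 4 and WT 5 differed by 1 signal unit. A mean of the 2 probe sets gave 0.16 (adjusted p = 0.596), so the sign for Fli1 depended on the probe set. Which transcripts each detects is not known here.

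**Figure D2:**
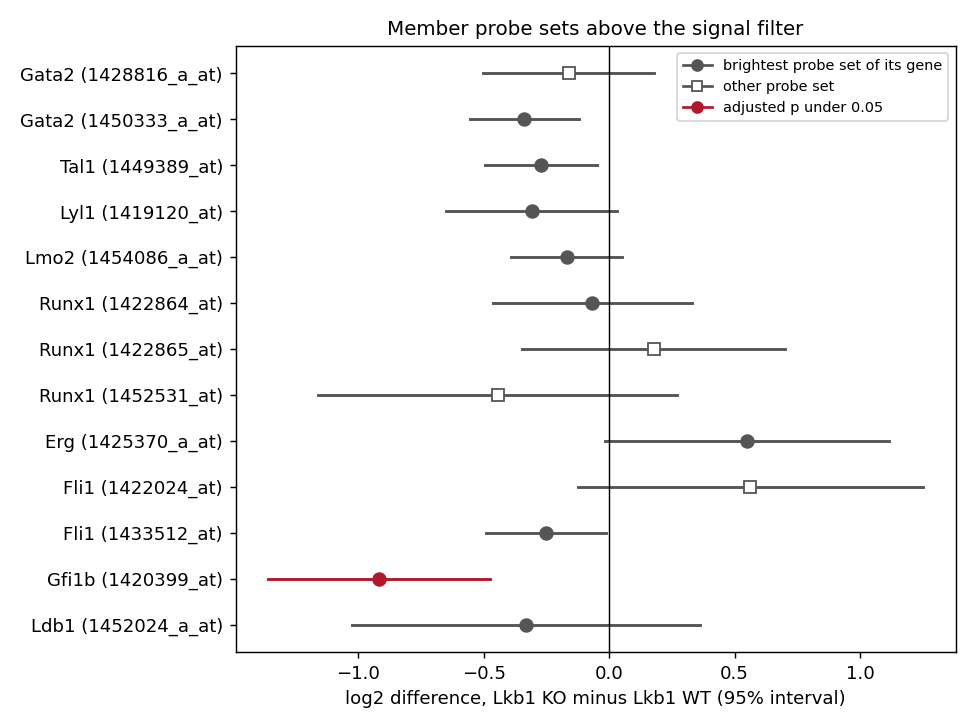
Log2 difference (KO minus WT) of the 13 member probe sets above the filter, with 95% intervals from the limma fit over all probe sets. Filled circles are the brightest probe set of a gene, open squares its other probe sets, and red marks an adjusted p under 0.05, which Gfi1b alone reached at 0.0429. The 2 Fli1 probe sets lie on opposite sides of 0.

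**Figure D3:**
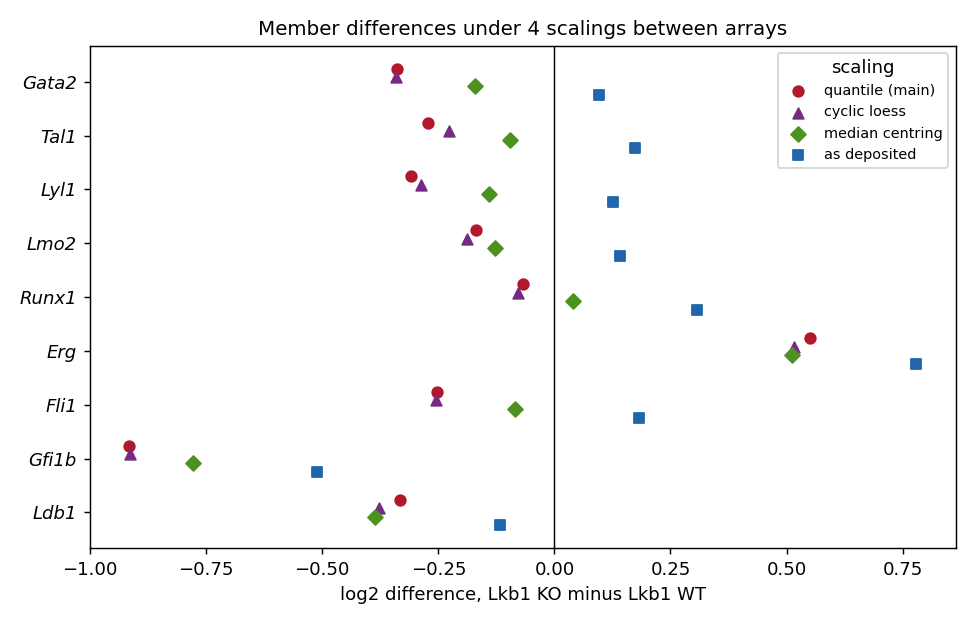
Log2 difference (KO minus WT) of the brightest probe set of each gene after quantile normalization, cyclic loess, median centring and with the scaling as deposited. Gfi1b lies furthest left under each of the 4, from -0.92 to -0.51, while Gata2, Tal1, Lyl1, Lmo2, Runx1 and Fli1 lie right of 0 as deposited.

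Partners of these factors were counted from lists of cofactors and targets, and Lmo1, Zfpm1 and Kit passed. Among E proteins, ID genes, LIM-only and LDB relatives and LDB1-binding SSBP genes, 1 of 9 tested rose and none fell, with a median of -0.04. Of all tested genes 2.46% rose and 2.95% fell, with a median of -0.02, so that a single gene makes up this count. The lowest difference was that of Id2, at -0.46 (adjusted p = 0.111). The gene that rose was Lmo1, the LIM-only relative of Lmo2 known as a T cell leukaemia oncogene. Lmo1 had signals of 115, 142.8, 162.1 and 161.8 in KO and 72.5, 86.8 and 67.8 in WT. The groups did not overlap (0.81 ± 0.14, adjusted p = 0.0238), and the difference held its sign and passed with the scaling as deposited (1.12, adjusted p = 0.00119). It passed in 3 of the 7 fits without 1 sample, and adjusted p was 0.0525 without KO 5, 0.0641 without KO 7, 0.0576 without WT 5 and 0.0658 without WT 7.

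Among the other GATA factors and their cofactor, Zfpm1 fell and 2 of 3 did not pass, where 2.95% of all tested genes fell. Zfpm1 encodes FOG1, the partner of GATA1 in red cells and platelets. Its signals were 172.7, 165.6, 201.9 and 167.2 in KO and 270.2, 260.4 and 251 in WT, so that the groups stood well apart (-0.52 ± 0.10, adjusted p = 0.0268). The difference was -0.14 with the scaling as deposited (adjusted p = 0.623). Zfpm1 passed without KO 6 (adjusted p = 0.0422) and did not pass without KO 4 (0.0649), KO 5 (0.0643), KO 7 (0.0737), WT 5 (0.0666), WT 6 (0.0736) or WT 7 (0.0658). Gata1, which replaces GATA2 at many sites as red cells form, had 189.6, 207, 178.1 and 188.3 in KO and 177.6, 216.8 and 254.2 in WT, which overlap (-0.16, adjusted p = 0.471).

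Of 4 tested genes bound by GATA-TAL1-LDB1 complexes in red cells, Kit fell and all 4 differences were below 0, with a median of -0.37. Among all tested genes 2.95% fell and 52.4% of the differences were below 0. Kit, the stem cell factor receptor and a marker of the sorting gate, had 1341, 1425, 1331 and 1346 in KO and 2007, 1624 and 1899 in WT. Its groups did not overlap (-0.43 ± 0.10, adjusted p = 0.0467). Kit passed in none of the 7 fits without 1 sample, with adjusted p of 0.101 without KO 4, 0.0793 without KO 5, 0.0971 without KO 6, 0.113 without KO 7, 0.103 without WT 5, 0.0558 without WT 6 and 0.111 without WT 7, and was at 0.01 with the scaling as deposited. The red cell factor gene Klf1 had 101.9, 95.97, 111.5 and 110.2 in KO and 120.8, 165.1 and 170 in WT, without overlap, and did not pass (-0.46, adjusted p = 0.0692).

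No gene of the remaining 5 lists passed in limma's fit over all genes. An unadjusted p under 0.05 was met by 25.3% of all tested genes, and 52.4% had differences below 0. The counts below are to be read against these shares. For CBF beta, the RUNX relatives and the ETO corepressors, 3 were tested (1 with an unadjusted p under 0.05), with Cbfb at 0.22 (adjusted p = 0.157) and Cbfa2t3 at -0.17 (adjusted p = 0.616; -0.30 to -0.04 in the fits without 1 sample). For GFI1 and the LSD1-CoREST complex, 9 were tested with a median of -0.05, and 1 had an unadjusted p under 0.05. Their lowest p was that of the deacetylase gene Hdac2, at 0.62 (adjusted p = 0.0615), and Kdm1a, the LSD1 gene, was at -0.01. Hdac2 passed as higher in KO under 6 of 21 alternatives, among them the scaling as deposited (0.98, adjusted p = 0.00424), median centring (0.0300) and the fit without KO 4 (0.0263). Of 10 other ETS factors 1 had an unadjusted p under 0.05, namely Elk3, which was at -0.30 (adjusted p = 0.0855), and Gabpb1 was at -0.18 (adjusted p = 0.266). Of 6 genes reported as repressed by GFI1B, 5 were below 0 (median -0.42) and 3 had an unadjusted p under 0.05, led by the survival gene Bcl2l1 at -0.44 (adjusted p = 0.0556) and the signalling regulator gene Rgs18 at -0.43 (adjusted p = 0.0590). Of 8 stem cell genes with enhancers bound by the heptad, 7 were below 0 (median -0.27) and 4 had an unadjusted p under 0.05, led by the endoglin gene Eng at -0.48 (adjusted p = 0.0546) and Myb at -0.24 (adjusted p = 0.154). With the scaling as deposited Bcl2l1 was at -0.040, Rgs18 at -0.036 and Eng at -0.07, and Myb was above 0, at 0.13.

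**Figure D4:**
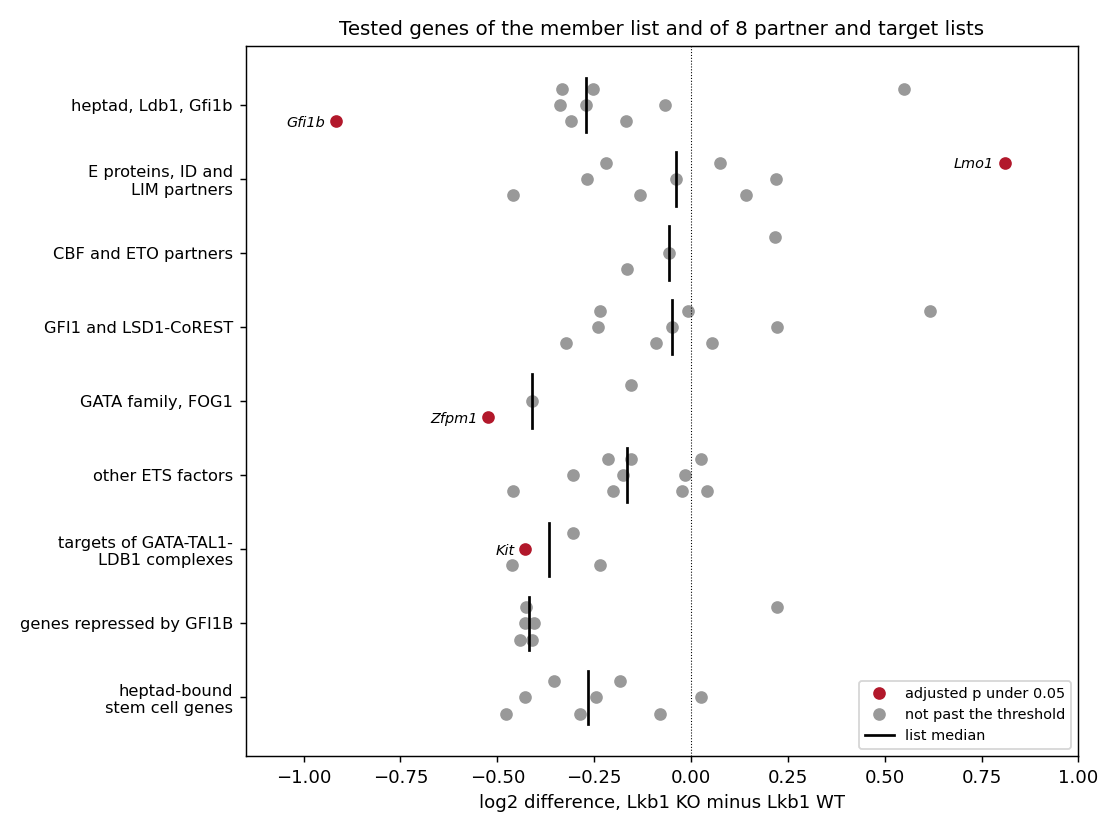
Log2 differences (KO minus WT) of all tested genes of the 9-gene list and of 8 lists of partners and targets, with a vertical bar at each list's median. Red points are the 4 genes past an adjusted p of 0.05, namely Gfi1b, Zfpm1 and Kit, which fell, and Lmo1, which rose. Vertical offsets within a list only separate the points.

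Summed markers of several cell types that use these factors differed between the groups after normalization, and in bulk samples fewer cells of a type and less RNA per cell cannot be told apart. Summed over 10 megakaryocyte and platelet genes, the normalized signal ranged from 3244 to 4792 in KO and from 5856 to 6029 in WT, and 8 of the 10 were above background on all arrays. Of the 8 tested 7 were below 0, with a median of -0.31, and groups did not overlap for 4. Among all tested genes 52.4% were below 0, 24.1% had groups that did not overlap, and 2.95% passed as lower. Only Plek passed (-0.78, adjusted p = 0.0413), a gene of leukocytes as well as platelets and the largest term of the sum. Vwf was at -0.45 (adjusted p = 0.0867), Gp1bb at -0.34 (adjusted p = 0.0768), Gp5 at -0.03 and Gp9 at 0.05. Over 12 red cell genes the sum ranged from 3647 to 4731 in KO and from 5139 to 6748 in WT, with 9 above background on all arrays. Of the 9 tested 7 were below 0, with a median of -0.46, and groups did not overlap for 8, among them Hba-a2 with KO higher. Ermap fell (-1.22, adjusted p = 0.0225) and the globin gene Hba-a2 rose (0.43, adjusted p = 0.0328). Car2, the largest term of the sum, did not pass (-0.55, adjusted p = 0.115), nor did Car1 (-1.05, adjusted p = 0.0602) or Rhag (-0.54, adjusted p = 0.0615). Over 8 mast cell and basophil genes the sum ran the other way, from 2880 to 3803 in KO and from 2102 to 2188 in WT. Of the 7 tested all were above 0, as were 47.6% of all tested genes. Cpa3, the largest term of the sum, rose (0.58, adjusted p = 0.0360), as did Ms4a2 (0.63, adjusted p = 0.0300), where 2.46% of all tested genes rose. Over 13 granulocyte and monocyte genes the sum ranged from 13700 to 19950 in KO and from 34520 to 46940 in WT. All 13 were above background on all arrays, and 10 of the 13 fell, where 2.95% of all tested genes did. The 3 that did not pass were above 0, namely Csf1r (0.75, adjusted p = 0.0828), Itgam (0.40, adjusted p = 0.0657) and Ccr2 (0.02, adjusted p = 0.951). For Csf1r and Itgam all KO samples lay above all WT samples. In deposited signals the sums of the megakaryocyte list (3376 to 5854 in KO, 4020 to 5862 in WT) and of the red cell list (3797 to 5763 in KO, 3641 to 6673 in WT) overlapped. So did those of the stroma list and of Kit, Ptprc, Cd34 and Flt3. Those of the granulocyte list (16584 to 20878 in KO, 33297 to 43237 in WT) and of the mast cell list (3312 to 3993 in KO, 1431 to 2072 in WT) did not. Endothelial genes, whose cells also use Tal1, Erg and Fli1, gave sums of 850.7 to 1111 in KO and 923.6 to 1152 in WT over 10 genes, which overlap. Stroma genes gave sums of 1331 to 1688 in KO and 1724 to 2664 in WT over 8 genes, with Col1a1 above background on no array. Only Col1a2 and Pdgfrb were above background on all arrays. Col1a2 fell (-0.95, adjusted p = 0.0428), and Pdgfrb, the largest term of the sum, did not pass (-0.33, adjusted p = 0.264). The B cell sums overlapped (766.8 to 1016 in KO, 733.9 to 990.1 in WT), as did the T and NK cell sums (76.83 to 117.1 in KO, 96.52 to 137.2 in WT). The T cell genes Cd3e and Cd3g and the B cell genes Cd79a and Pax5 were above background on no array. The part of these cell types in the differences of Gfi1b, Zfpm1 and Kit was not tested.

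The genes most like Gfi1b over the 7 samples, by Pearson's r of normalized log2 values over all tested genes, were Maf1 (r = 0.989), Tbxa2r (0.986), Prxl2a (0.985), Dkkl1 (0.983) and Basp1 (0.981). Among these Dkkl1 fell (-1.06 ± 0.20, adjusted p = 0.0284) and the others did not pass. Those most like Gata2 were Ice2 (r = 0.988), Secisbp2l (0.985), Trmt10a (0.984), H2-T18 (0.981) and Epn1 (0.979), of which H2-T18 fell (-0.50 ± 0.11, adjusted p = 0.0414). Dkkl1 passed in 2 of the 7 fits without 1 sample, without KO 4 and KO 6, and its adjusted p ranged up to 0.0728 (without WT 5) in the others. H2-T18 passed in none of them, with adjusted p from 0.0672 (without KO 4) to 0.106 (without WT 6). The values share arrays and normalization, and these genes were picked as the highest of 8077, so the coefficients are descriptions.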

How the data were processed

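One array per sample gave RNA levels in 4 Lkb1 KO and 3 Lkb1 WT samples. The deposited values are signal intensities per probe set on a linear scale, made by the authors with MAS5, per the submitters' processing notes. No label states its settings. The array that the labels name has more probe sets than the 22690 in the table.

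Of the probe sets, 20393 had 1 gene symbol in the platform annotation and 20364 of these matched GRCm38.p6 by gene ID. Signals of non-control probe sets were quantile normalized and taken as log2(signal + 16), which understates changes of dim genes. Probe sets with means above the 40th percentile entered limma 3.58.1 (R 4.3.3; lmFit and eBayes, genotype only, 5 residual degrees of freedom), once with the brightest probe set per gene (8077 genes) and once with all (13575 probe sets), with Benjamini-Hochberg adjustment and a threshold of 0.05. The background is the 95th percentile of 27 control probe sets, 13.64. Arrays have no read depth, and their number limits the precision. Single values were compared by exact permutation. No pairing was used, since the labels do not say that a shared number marks a litter or day. The deviations of samples with the same number correlated at 0.0291, 0.0985 and 0.0502, all above 0. Those of the 9 pairs with unlike numbers ran from -0.07 to 0.0656, and only KO 4 with WT 5 was above 0. So few weak correlations cannot decide if the numbers mark pairs. With the number as a block, 1 gene passed in place of 437. On simulated data for the gene fit (8077 genes), limma recovered 81 of 100 changes of 1 log2 unit and 23 of 100 of 0.5, with 7 false calls. The simulated noise was drawn independently for each gene and array, without group differences in brightness or Actb ratio. The 7 false calls are therefore no error rate for the real arrays.

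The members, lists and tests were chosen with earlier results of these data known. Named genes are the members, list genes past the threshold (up to 4 a list, otherwise the 2 of lowest p), Stk11, and the 5 genes most like Gfi1b and Gata2. Gata1, Klf1, Kdm1a, Id2 and the single marker genes were added after their values were seen, as was the comparison of Gfi1b with Gfi1. The fits were repeated with other pseudocounts, a floor, other scalings, filters and probe set rules, a variance trend, weights per array, a block for the replicate number, the Actb ratio as a term, and without each sample in turn.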

Additional observations from a re-analysis of the deposited data

How the results depend on the processing

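The number of genes past the threshold, 437 (199 higher and 238 lower in KO), was 694 with a pseudocount of 64, 1415 (1372 and 43) as deposited, 711 (545 and 166) with median centring, 56 with no filter, 711 with the 60th percentile filter, 888 with a variance trend, 1 with the replicate block, 0 with the Actb ratio as a covariate (limma; 713 with an unadjusted p under 0.05) and 149 with the dimmest probe set of each gene. For probe sets, 547 (283 and 264) became 882, 2044 (1999 and 45), 970 (784 and 186), 67, 1041 and 1175 in the same order, then 2 with the replicate block and 2 with the Actb ratio. Without 1 sample the counts ranged from 43 to 193 genes and from 49 to 112 probe sets. The count of members past the threshold, 1, was 2 (Gfi1b and Gata2) with a pseudocount of 64, the 60th percentile filter or a variance trend, 0 with no filter, the replicate block, the Actb ratio or the dimmest probe set, and 0 to 1 without 1 sample. As deposited it was 1, and that gene was Erg, higher in KO. For member probe sets it was 2 with the 60th percentile filter, 0 with a pseudocount of 1, median centring, no filter, array weights, the replicate block or the Actb ratio, and 0 in each fit without 1 sample. Gfi1b itself was at -0.996 (adjusted p = 0.0952) with the replicate block and at -1.09 (adjusted p = 0.498) with the Actb ratio, whose values did not overlap between the groups. The labels do not say if same-numbered samples share more than the number.

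As deposited, signs turned for Gata2 (0.10), Tal1 (0.17), Lyl1 (0.13), Lmo2 (0.14), Runx1 (0.31), Fli1 (0.18), Cbfa2t3 (0.26), Elk3 (0.14), Gabpb1 (0.23), Kit (0.012), Myb (0.13), Maf1 (0.14), Tbxa2r (0.041), Prxl2a (0.027), Basp1 (0.16), Ice2 (0.23), Trmt10a (0.065) and the dimmer Gata2 probe set (0.25). Runx1 also turned with median centring (0.0399), the replicate block (0.038), the Actb ratio (0.41), its dimmest probe set (0.18), without KO 4 (0.039) and without WT 5 (0.013; -0.197 to 0.039 over the fits without 1 sample), its second probe set without WT 6 (-0.028 to 0.378 over those fits), and a probe set near background in the deposited signals (0.042, exact permutation p = 0.943). With the mean of the probe sets Fli1 (0.16) and Gabpb1 (0.0499) turned, and with the dimmest Fli1 (0.56), Gabpb1 (0.28) and Myb (0.0397). The cause was not tested for any of these.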
